A study of Mus musculus with 5 samples.

Results

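The imprinted growth genes are a set of 9 genes named by symbol: Cdkn1c, Grb10, Igf2, Dlk1, Plagl1, Peg3, Ndn, Meg3 and H19. A probe set belonged to the set where the array's annotation gave it exactly 1 gene symbol equal to a member. By this rule 8 of the 9 genes had 35 of the 45101 probe sets on the array, and were 8 of the 18193 genes measured. H19 had no probe set with a single symbol, so it is not analysed here. Where a gene had several probe sets, the one with the highest mean over the arrays stood for it and is called its lead probe set.

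Stem and progenitor cells from bone marrow of C57BL/6 mice were profiled on 5 expression arrays. Of these, 2 carried RNA from MSI2-inducible mice and 3 carried RNA from control mice with rtTA, the transactivator that doxycycline activates to switch on inducible transgenes. MSI2 (Musashi-2) binds RNA and regulates translation. Age, the promoter driving either transgene and any doxycycline treatment are not given in the sources used here. Nothing states that each array had its own mouse, and p-values therefore measure only the spread between arrays, which may be technical. The sample labels give the cells as positive for both Sca1 and Kit, whereas the series text gives them as Kit-positive without Sca1. Values below are log2 intensities, and every difference is MSI2-inducible minus control rtTA. The brightness of a probe set also depends on its probes, so brightness does not order the genes by transcript amount. In these bulk samples, fewer cells of a type and less RNA per cell cannot be told apart.

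An imprinted gene is transcribed mainly from the copy inherited from one parent, because DNA methylation laid down in the germ line at control regions differs between the copies; depending on the domain, the methylated copy can be the silent or the expressed one. Many genes of this kind regulate growth of the embryo and the placenta, with paternally expressed members such as Igf2 promoting growth and maternally expressed members such as Cdkn1c, Grb10 and H19 limiting it. In adult mouse bone marrow several of them are known from dormant stem cells. Cdkn1c holds stem cells out of the cell cycle, and Ndn and the Dlk1-Meg3 domain have been tied to the same state.

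No imprinted growth gene passed the test between MSI2-inducible and control cells. Of the 8 lead probe sets, 0 had an adjusted p under 0.05 in limma, and 0 had an unadjusted p under 0.05. Over all genes 0.0220% passed at the adjusted threshold. Differences of the lead probe sets lay between -0.13 (Cdkn1c) and 0.47 (Peg3), with 5 higher and 3 lower and a median of 0.17, beside a median of 0.00 over all 18193 genes. Their limma adjusted p lay between 0.912 and 0.984. Only for Peg3, which was higher, did the groups not overlap (1 of 8 genes). Over all genes, 9.27% had both MSI2-inducible arrays above every control array and 9.39% had both below.

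**Figure D1:**
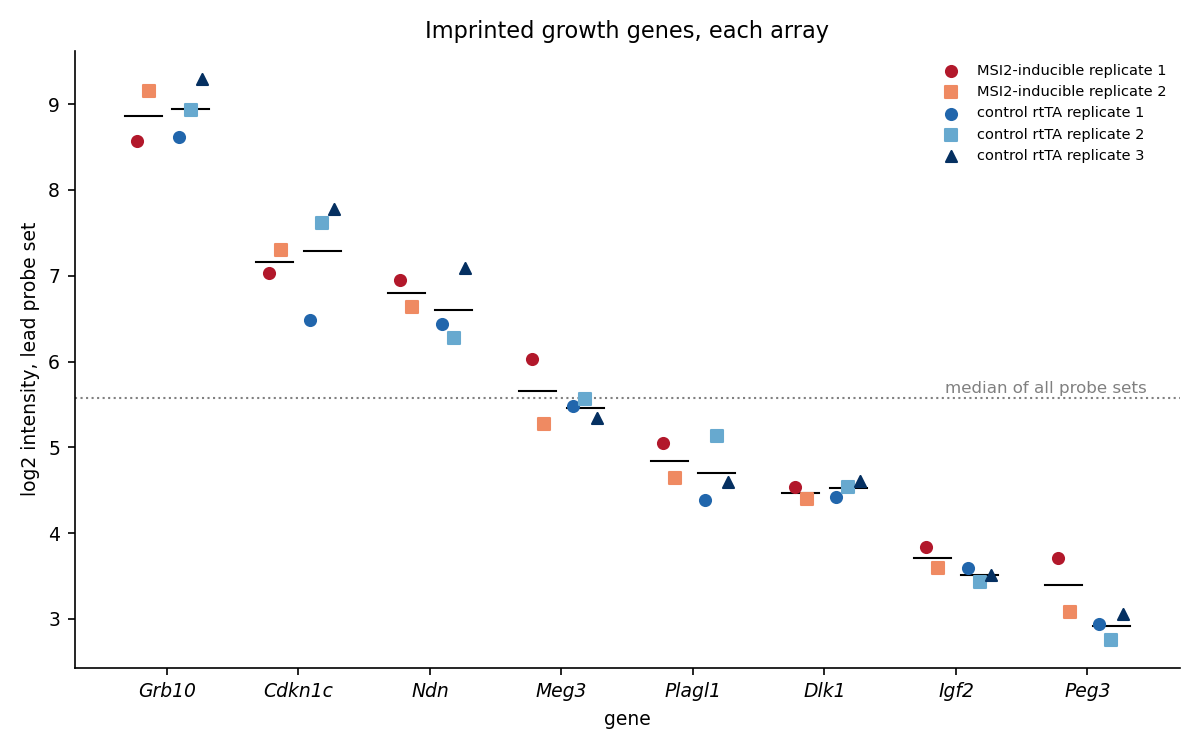
Log2 intensity of the lead probe set of each imprinted growth gene (vertical axis) by gene, with MSI2-inducible arrays left and control rtTA arrays right. Each point is 1 array, each bar a group mean, and the dotted line the median of all probe sets at 5.57. Grb10, Cdkn1c and Ndn lie above that line in all 5 arrays, and the groups overlap in every gene except Peg3.

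Only 3 members had lead probe sets whose mean over the 5 arrays exceeded the median of all probe sets (5.57), namely Grb10, Cdkn1c and Ndn. Those were also the only members left by a filter at that median. Meg3 lay just under it, at 5.54, and Plagl1 (4.76), Dlk1 (4.50), Igf2 (3.59) and Peg3 (3.11) lay further down. The lead probe set of Grb10 was brighter than 85.8% of all probe sets, and that of Peg3 brighter than 16.5%. Of all 35 probe sets, 5 had means above the median. Near the lower end of the scale a change in transcript amount moves the signal little, and small differences of Igf2, Dlk1 and Peg3 were not read as differences in RNA.

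Stem and progenitor markers were bright in both groups, with means above the median of all probe sets for all 10 measured. Of these, 3 were higher and 7 lower in MSI2-inducible cells, and 0 passed in limma (2 lower at an unadjusted p under 0.05). Those were the stem cell surface receptor gene Slamf1, at 5.57 and 7.22 in MSI2-inducible arrays against 7.36, 7.99 and 7.66 in control arrays, and the transcription factor gene Mecom, at 9.13 and 9.52 against 9.84, 9.88 and 9.98. Both lay below every control array in their lead probe sets. All 3 Slamf1 probe sets were lower, whereas 2 of the 3 Mecom probe sets were higher (differences from -0.58 to 0.54). The list averaged 9.52 and 10.13 against 9.96, 10.11 and 10.10, lowest in MSI2-inducible replicate 1. Ly6a, which encodes Sca1, is not analysed here, so the Sca1 gate was not checked.

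MSI2-inducible replicate 1 stood apart from the other arrays, with a first principal component score of 56.5. Control replicate 2 lay farthest on the opposite side, at -37.3. The remaining scores were -5.35 (MSI2-inducible replicate 2), -2.87 (control replicate 1) and -10.98 (control replicate 3). No marker of another cell type named here passed in limma. Those named have an unadjusted p under 0.05, except Gata1, which is given because it went the other way. Megakaryocyte markers (6 genes) averaged 6.42 and 6.84 in MSI2-inducible arrays against 7.40, 6.95 and 7.22 in control arrays, with 5 lower and 1 higher. Among those lower, Vwf lay at 7.59 and 7.80 against 8.59, 8.61 and 8.72 and Pf4 at 7.90 and 8.69 against 10.05, 9.45 and 9.54. The groups overlapped in every other megakaryocyte marker. Erythroid markers (6 genes) averaged 8.48 and 7.07 against 7.32, 6.20 and 6.94, with Epor at 8.30 and 7.89 against 7.24, 6.97 and 6.57 and Car1 at 11.47 and 10.52 against 10.45, 9.22 and 9.59. Thus these 2 megakaryocyte genes were below, and these 2 erythroid genes above, every control array. Of the 6 erythroid markers, 5 were higher and 1 lower. The lower one, Gata1, lay at 6.91 and 6.85 against 7.61, 7.52 and 7.09, below every control array (unadjusted limma p 0.0510). Mature neutrophil markers (8 genes) averaged 11.58 and 8.61 in MSI2-inducible replicates 1 and 2, against 9.82, 8.92 and 9.70 in the controls. The 4 measured B cell markers averaged 7.16 and 6.39 in MSI2-inducible arrays against 6.06, 5.42 and 6.28 in control arrays. Stromal markers (10 genes) averaged 4.78 and 4.88 against 4.89, 5.21 and 4.87, with 6 higher, 4 lower and a median difference of 0.04. Among those lower, the chemokine gene Cxcl12 lay at 4.61 and 5.79 against 6.33, 8.79 and 6.95, below every control array. Endothelial markers (8 genes) averaged 5.82 and 6.48 against 6.46, 7.19 and 6.59. Gapdh control probes had a 3' minus 5' signal of 2.22 in each MSI2-inducible array against 2.14, 2.60 and 2.40 in control arrays. Those of beta-actin had -0.06 and -0.07 against -0.15, -0.15 and 0.01. The part of other cells or of RNA quality in the results below was not tested.

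Promoter sequence is one feature that the choice of members did not use. RefSeq promoter windows of build GRCm38.p6, running from 250 bases before a transcript start to 50 after it, were matched by symbol for 7 members with 12 windows. CpG dinucleotides, the sites of DNA methylation that imprinting acts through, numbered 1 to 45 in these windows, against a median of 7 over all 32851 windows of 300 bases. Of the 12 windows, 10 were at or above that median, where 47.9% of all windows lay below it. Several of the 12 share a gene, and enrichment was not tested. The 2 windows of Grb10 are shown because they come from one gene and differ most in CpG number, that of Ndn because its probe sets part most between the groups, and that of Peg3 because it holds a motif searched for. Capitals mark CpG dinucleotides.
Grb10, first window, chr11:12037371-12037670, minus strand: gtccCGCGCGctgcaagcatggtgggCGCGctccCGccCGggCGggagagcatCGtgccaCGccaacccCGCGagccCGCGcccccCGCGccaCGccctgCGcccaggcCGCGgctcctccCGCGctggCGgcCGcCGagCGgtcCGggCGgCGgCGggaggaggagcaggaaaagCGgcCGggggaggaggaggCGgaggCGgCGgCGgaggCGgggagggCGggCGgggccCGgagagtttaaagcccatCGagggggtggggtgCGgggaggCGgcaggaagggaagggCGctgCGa
Grb10, second window, chr11:12027922-12028221, minus strand: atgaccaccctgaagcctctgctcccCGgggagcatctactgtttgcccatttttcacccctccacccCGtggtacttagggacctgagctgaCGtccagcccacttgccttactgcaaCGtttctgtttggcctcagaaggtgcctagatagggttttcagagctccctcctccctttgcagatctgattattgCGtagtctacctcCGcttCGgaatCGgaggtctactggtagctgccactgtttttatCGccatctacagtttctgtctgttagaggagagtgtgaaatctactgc
Ndn, chr7:62348027-62348326, plus strand: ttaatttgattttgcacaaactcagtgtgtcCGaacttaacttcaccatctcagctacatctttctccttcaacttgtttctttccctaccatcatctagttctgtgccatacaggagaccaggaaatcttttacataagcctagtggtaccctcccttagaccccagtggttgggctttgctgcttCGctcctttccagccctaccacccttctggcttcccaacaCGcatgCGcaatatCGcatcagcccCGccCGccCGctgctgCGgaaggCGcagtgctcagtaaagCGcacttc
Peg3, chr7:6730370-6730669, minus strand: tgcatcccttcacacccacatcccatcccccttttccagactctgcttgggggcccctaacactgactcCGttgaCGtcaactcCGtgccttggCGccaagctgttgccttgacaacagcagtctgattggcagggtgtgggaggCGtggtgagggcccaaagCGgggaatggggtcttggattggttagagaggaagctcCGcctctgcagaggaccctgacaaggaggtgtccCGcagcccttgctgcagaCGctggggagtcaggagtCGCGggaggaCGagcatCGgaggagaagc
The first Grb10 window holds 45 CpG dinucleotides, more than 98.1% of all windows, and the second holds 9. The Ndn window holds 11 and the Peg3 window 13. Plagl1 is a zinc finger protein whose known motif is GGGGCCCC, which reads the same on both strands and was searched with overlaps allowed. It occurred in 1 of the 12 windows, at base 50 of the Peg3 window, and in 1.08% of all windows. These letters were not in the other 11 windows, from which nothing follows about the factor.

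Cdkn1c encodes p57, an inhibitor of cyclin-dependent kinases that restrains entry into the cell cycle. Its single probe set lay at 7.03 and 7.30 in MSI2-inducible arrays, against 6.49, 7.61 and 7.78 in control arrays. Both MSI2-inducible values fell inside the control range, in which control replicate 1 was the lowest of all 5 arrays. The means were 7.17 ± 0.19 (SD, n = 2) in MSI2-inducible and 7.29 ± 0.70 (SD, n = 3) in control cells. The difference was -0.13 (95% interval -1.14 to 0.88, limma adjusted p 0.983). Without control replicate 1 it was -0.53, and without control replicate 3 it was 0.12. At 1.30 on the log2 scale, the range over the 5 arrays was the widest of the 8 lead probe sets, and control arrays held both ends of it.

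Grb10 encodes an adaptor that binds the insulin and IGF1 receptors and dampens their signal. The lead probe set lay at 8.57 and 9.16 in MSI2-inducible arrays, against 8.61, 8.93 and 9.30 in control arrays. The groups overlapped, and the difference was -0.08 (95% interval -0.79 to 0.62, limma adjusted p 0.984). The other probe sets, which share the same gene and are not replicates, gave differences of 0.12 and 0.22. The first of these, 1425457_a_at, had 5.80 and 7.50 in MSI2-inducible arrays, against 6.49, 6.07 and 7.05 in control arrays. The second, 1430164_a_at, had 4.93 and 5.84, against 5.06, 5.07 and 5.34. MSI2-inducible replicate 1 was the lowest array in all 3 Grb10 probe sets, and MSI2-inducible replicate 2 was the highest in 2 of them. The MSI2-inducible arrays thus lay on opposite sides of the control arrays in those 2. Without replicate 1 all 3 differences were positive (0.21 to 0.96), and without replicate 2 all 3 were negative (-0.73 to -0.23).

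Igf2 encodes insulin-like growth factor 2, a fetal growth ligand. Its lead probe set lay at 3.83 and 3.59 in MSI2-inducible arrays, against 3.59, 3.42 and 3.51 in control arrays. MSI2-inducible replicate 2 equalled the highest control array, and the difference was 0.20 (95% interval -0.23 to 0.63, limma adjusted p 0.931). The second probe set lay at 2.73 and 2.76, against 2.81, 2.82 and 2.35, a difference of 0.08. The lead probe set was brighter than 22.7% of all probe sets, and the second brighter than 11.3%.

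Dlk1 encodes a transmembrane protein related to the Notch ligands that holds back differentiation. Its lead probe set lay at 4.53 and 4.40 in MSI2-inducible arrays, against 4.42, 4.53 and 4.61 in control arrays, and the groups overlapped. The difference was -0.05 (95% interval -0.47 to 0.36, limma adjusted p 0.983). Its range over the 5 arrays, 0.21, was the narrowest of the 8 lead probe sets. The second, dimmer probe set, 1449939_s_at, lay at 2.61 and 2.93, against 3.01, 3.10 and 3.10, with both MSI2-inducible arrays lower. Its difference of -0.29 had a limma adjusted p of 0.901.

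Plagl1 and Peg3 encode zinc finger proteins. Plagl1 is known as a regulator of other imprinted genes in the mouse. Its lead probe set lay at 5.05 and 4.64 in MSI2-inducible arrays, against 4.38, 5.13 and 4.59 in control arrays, a difference of 0.14 (95% interval -0.54 to 0.83, limma adjusted p 0.978). The probe set 1426208_x_at read 3.23 and 3.29, against 2.28, 2.19 and 6.35, so control replicate 3 alone was far above the other 4 arrays. That array set the sign of the difference, which was -0.35 with all arrays and 1.02 without control replicate 3. The third probe set stayed between 2.56 and 2.66 in every array. In the fit over all probe sets, no Plagl1 probe set passed (limma adjusted p from 0.970 to 0.998).

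The lead probe set of Peg3 had 3.71 and 3.08 in MSI2-inducible arrays, against 2.94, 2.76 and 3.06 in control arrays. Both MSI2-inducible arrays were higher, replicate 2 only just. The difference of 0.47 (95% interval -0.13 to 1.07, limma adjusted p 0.912) was 0.16 without MSI2-inducible replicate 1. The other 4 probe sets differed by -0.13 to 0.22. All 5 Peg3 probe sets were dim, with means between 1.60 and 3.11.

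Ndn encodes necdin, a growth suppressor of the MAGE family that binds E2F1 and p53. Its probe sets gave unlike answers. The lead probe set, 1437853_x_at, lay at 6.95 and 6.64 in MSI2-inducible arrays, against 6.43, 6.27 and 7.09 in control arrays. These values overlapped, and the difference was 0.19 (95% interval -0.52 to 0.91, limma adjusted p 0.964). The probe set 1415923_at, annotated to the RefSeq transcript of Ndn, lay at 4.72 and 4.41 in MSI2-inducible arrays, against 2.79, 2.94 and 3.25 in control arrays. Here both MSI2-inducible arrays were more than 1 log2 unit above every control array.

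The means for 1415923_at were 4.56 ± 0.22 (SD, n = 2) in MSI2-inducible and 2.997 ± 0.24 (SD, n = 3) in control cells. This difference of 1.57 (SE 0.22, 95% interval 1.01 to 2.12) was the largest of the 35 probe sets. It was measured on dim signal, brighter than 23.1% of all probe sets, as for the members that were not read above. Its unadjusted limma p was 0.000548, and its adjusted p over all 45037 probe sets was 0.398, so it did not pass. It lay between 1.41 and 1.72 with any 1 array left out, and at 0.72 on a scale with 16 units added before the log2, which compresses dim signal. Over all alternatives run, its limma adjusted p lay between 0.267 and 0.980.

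Control replicate 2 was the lowest array in 5 of the 8 Ndn probe sets, among them the 2 described next. The first, 1435382_at, lay at 5.62 and 5.42 in MSI2-inducible arrays, against 4.70, 3.24 and 4.99 in control arrays, without overlap. Its difference of 1.21 (limma adjusted p 0.881) was 0.68 without control replicate 2. The second, 1435383_x_at, lay at 5.75 and 5.43, against 5.29, 4.34 and 5.43, a difference of 0.57. The probe set 1455792_x_at differed by 0.29, and the 3 dimmest, with means from 1.80 to 2.16, by -0.40, -0.09 and 0.02. In the dimmest, 1456575_at, both MSI2-inducible arrays were below every control array, at 1.57 and 1.54 against 1.65, 2.15 and 2.07. Among the 5 brighter probe sets of Ndn, all were higher in MSI2-inducible cells and the difference was larger the dimmer the probe set. The suffix _x_at marks probe sets that may bind other transcripts as well, and the 3 brightest carry it. With _x_at and _s_at probe sets left out, Ndn was represented by 1435382_at and did not pass either (limma adjusted p 0.904).

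**Figure D2:**
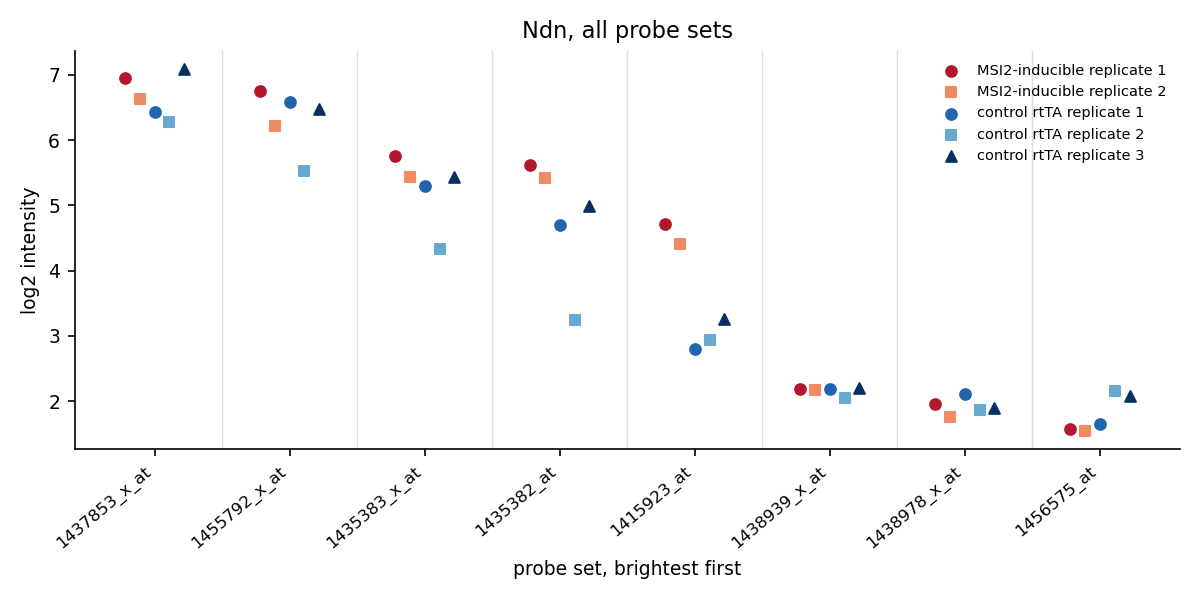
Log2 intensity (vertical axis) of the 8 Ndn probe sets, brightest first, with 1 point per array. MSI2-inducible arrays (red shades) lie above all control rtTA arrays (blue shades) in 1435382_at and 1415923_at, and the groups overlap in the 3 brighter ones. In 1456575_at, the dimmest, they lie below all control rtTA arrays.

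Meg3 is a maternally expressed long noncoding RNA of the Dlk1 domain. All 11 of its probe sets had a positive difference, between 0.01 and 0.49, and none passed (lowest limma adjusted p 0.871). The lead probe set lay at 6.03 and 5.28 in MSI2-inducible arrays, against 5.48, 5.56 and 5.34 in control arrays. Replicate 1 was the highest and replicate 2 the lowest of the 5 arrays, and the difference was 0.19 (95% interval -0.45 to 0.83, limma adjusted p 0.957).

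The widest Meg3 difference, 0.49, was that of 1426758_s_at, with 5.41 and 4.99 in MSI2-inducible arrays, against 4.70, 4.77 and 4.67 in control arrays. The next, 1436713_s_at, had 5.11 and 4.72, against 4.29, 4.58 and 4.53, a difference of 0.45. In these 2 probe sets both MSI2-inducible arrays were above every control array. MSI2-inducible replicate 1 was the highest array in 9 of the 11 probe sets and was above replicate 2 in all 11. Without replicate 1, 5 of the 11 were higher and 6 lower, with a median difference of -0.02. The uniform direction of Meg3 therefore rested on MSI2-inducible replicate 1.

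**Figure D3:**
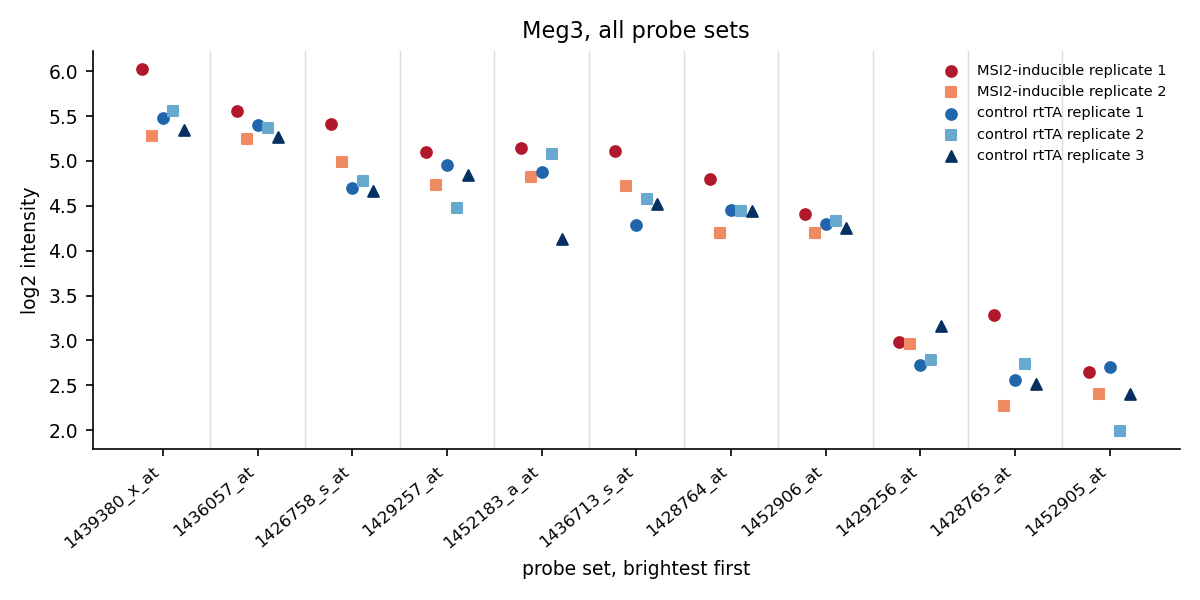
Log2 intensity (vertical axis) of the 11 Meg3 probe sets, brightest first, with 1 point per array. MSI2-inducible replicate 1 (dark red) is the highest point in 9 probe sets, and MSI2-inducible replicate 2 (orange) lies above all control rtTA arrays (blue shades) in 2.

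Over all 35 probe sets of the members, 27 were higher and 8 lower in MSI2-inducible cells. Of the 27, 11 were of Meg3 and 6 of Ndn, and probe sets of the same gene are not replicates. Among lead probe sets, 5 of 8 were higher, against 9157 of all 18193 genes. None had a limma adjusted p under 0.05, where 0.00444% of all 45037 probe sets did. An unadjusted p under 0.05 was reached by 1 of the 35, against 5.68% of all probe sets. Both MSI2-inducible arrays were above every control array in 5 of the 35, against 9.26% of all probe sets, and below in 2, against 9.66%. Without MSI2-inducible replicate 1, 19 were higher and 16 lower. Without any 1 of the other arrays, 24 to 28 were higher.

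**Figure D4:**
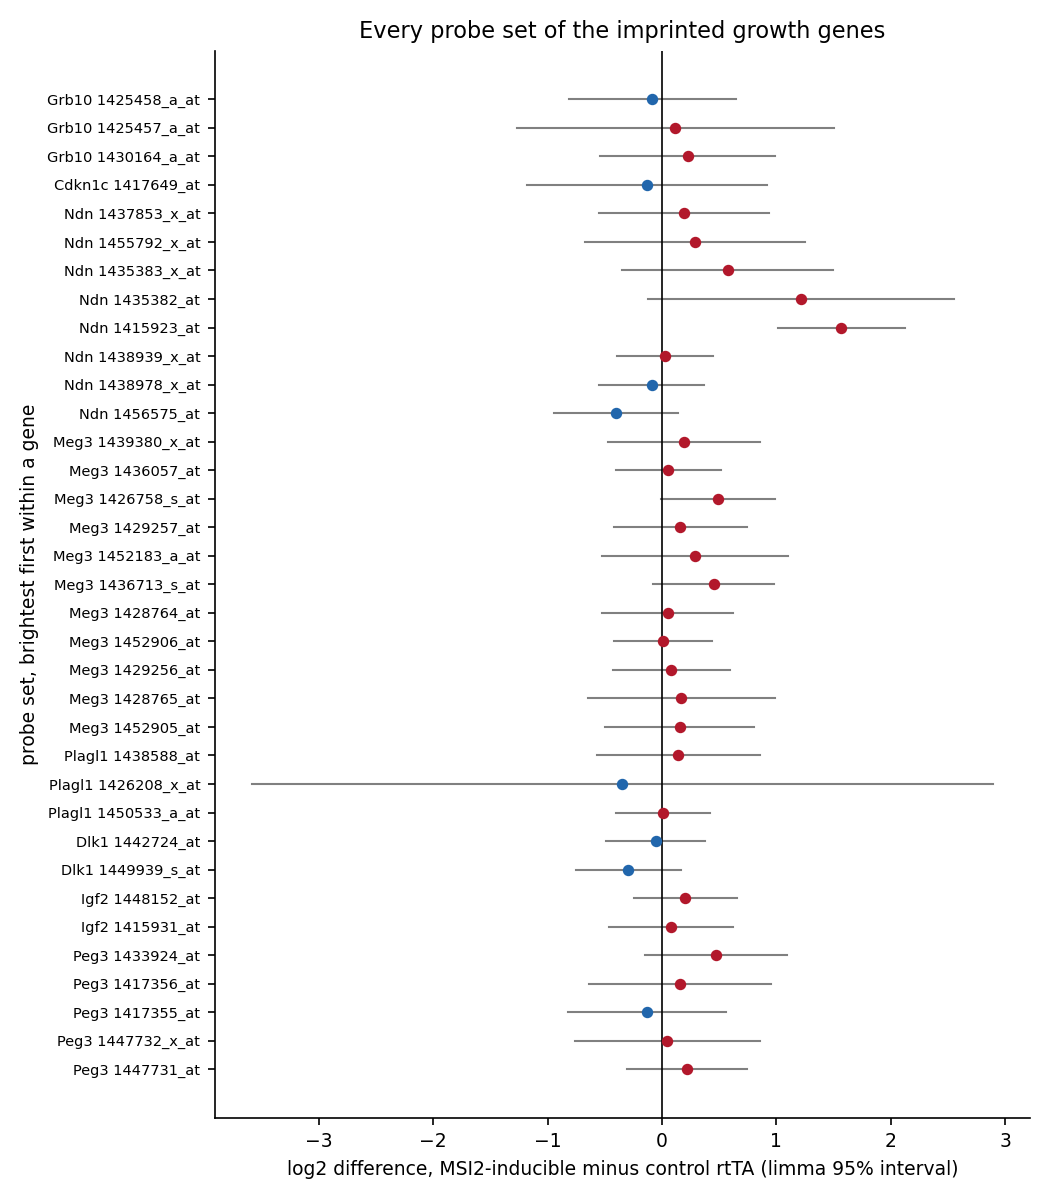
Log2 difference, MSI2-inducible minus control rtTA (horizontal axis), of each of the 35 probe sets, with limma's 95% interval as a line, grouped by gene. Points right of 0 are higher in MSI2-inducible cells. Only the interval of the Ndn probe set 1415923_at, from 1.01 to 2.12, lies clear of 0, before any adjustment for the number tested.

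The profile of each of the 3 members with the widest ranges was set against 10558 or 10559 other genes above the median brightness. Likeness was the root mean square difference of log2 profiles, each centred on its own mean, over the 5 arrays. Nearest to Cdkn1c were the enamel gene Amelx (0.138), the growth factor receptor gene Fgfr1 (0.160) and 5430405H02Rik (0.164). Each had its lowest value in control replicate 1, as Cdkn1c did, which follows from choosing them by likeness to its profile. Nearest to Peg3 were the macrophage gene Mpeg1 (0.0395), the glycolytic regulator Pfkfb3 (0.0431) and the exonuclease gene Dis3l2 (0.0550). Mpeg1 lay at 9.29 and 8.61 in MSI2-inducible arrays, against 8.53, 8.26 and 8.67 in control arrays. Nearest to the lead probe set of Ndn were Syap1 (0.0528), Zscan29 (0.0648) and the acetylcholine receptor subunit Chrnb1 (0.0830). These likenesses are descriptions over 5 arrays and were not tested.

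Other imprinted genes did not pass either. Of 48 measured genes, 21 were higher and 27 lower, the median difference was -0.05, and 0 passed in limma. At an unadjusted p under 0.05, 0 were higher and 2 lower. Those were Peg12 of the Ndn domain, at 3.51 and 4.02 in MSI2-inducible arrays against 4.62, 4.16 and 4.67 in control arrays, and Sgce, a sarcoglycan gene, at 6.21 and 6.64 against 6.75, 7.19 and 7.17. In both, the MSI2-inducible arrays were below every control array. Their differences were -0.73 and -0.61 (limma adjusted p 0.870 and 0.883), and a second Sgce probe set differed by 0.09. Ddc, a decarboxylase gene beside Grb10, differed by -0.58, but its values lay under 3.3 in every array. Kcnq1ot1, the noncoding RNA of the domain that holds Cdkn1c, lay at 9.43 and 9.52, against 9.44, 10.85 and 10.15, a difference of -0.67 (limma adjusted p 0.912). Its 6 probe sets differed by -1.44 to 0.33.

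**Figure D5:**
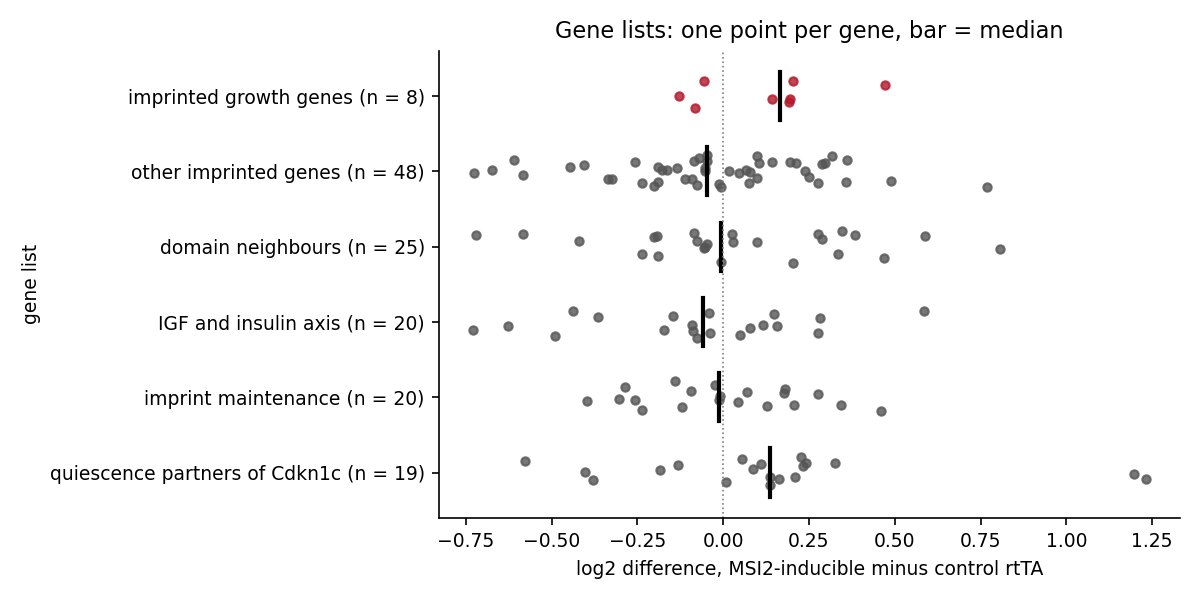
Log2 difference, MSI2-inducible minus control rtTA (horizontal axis), of each gene in 6 lists, with 1 point per gene and a bar at the median. The 8 imprinted growth genes (red, top) have a median of 0.17 and lie within the spread of the other lists, whose medians run from -0.06 to 0.14.

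Genes next to the members were compared as the nearest 2 protein-coding genes on each side. Of 30 neighbours, which include Igf2 and Dlk1 as neighbours of H19 and Meg3, 25 had a value, 12 higher and 13 lower with a median of -0.01, and 0 passed in limma (1 at an unadjusted p under 0.05). That one was Ltv1, a ribosome assembly factor beside Plagl1, at 9.43 and 9.47 in MSI2-inducible arrays against 8.88, 9.01 and 8.69 in control arrays, a difference of 0.59 (limma adjusted p 0.870). The other neighbours of Plagl1 differed by 0.81 (Stx11), 0.47 (Sf3b5) and 0.03 (Zc2hc1b). Beside Cdkn1c, Phlda2 differed by -0.20, Slc22a18 by -0.05, Kcnq1 by 0.29 and Trpm5 by -0.42. The 3 Trpm5 probe sets differed by -0.42 to 0.59. Beside Grb10, Cobl differed by 0.38, Fignl1 by 0.33 and Pom121l12 by 0.35.

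The neighbours of Ndn, all imprinted like it, differed by -0.24 (Magel2), -0.19 (Mkrn3) and 0.28 (Snrpn), and their groups overlapped. Of the 25 neighbours with a value, both MSI2-inducible arrays were above every control array in 3 and below in 2. Over all genes those shares were 9.27% and 9.39%. Beside Peg3, Usp29 differed by -0.09, Zim1 by -0.08 and Aurkc by -0.72. Aurkc lay at 3.40 and 3.52 in MSI2-inducible arrays, against 3.59, 5.18 and 3.78 in control arrays, so control replicate 2 was far above the rest. Beside H19 and Igf2, Ins2 differed by 0.10, Th by -0.05, Mrpl23 by 0.03 and Tnnt3 by -0.01. Beside Dlk1, Wdr25 differed by -0.19.

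The IGF axis, through which Igf2 and Grb10 act, had 20 measured genes, 8 higher and 12 lower, with a median of -0.06 and 0 past the limma test. Ide, an insulin-degrading protease, differed by 0.58 and was the 1 gene with an unadjusted p under 0.05. Igf1r, the receptor for both IGF ligands, lay at 9.12 and 9.90 in MSI2-inducible arrays, against 9.92, 9.95 and 9.98 in control arrays. Both were lower, replicate 2 by far less, and the difference was -0.44 (limma adjusted p 0.912). The RNA-binding protein gene Igf2bp3 differed by -0.63, but 4 of its 6 probe sets were higher (-0.63 to 0.27). The IGFBP protease gene Pappa differed by -0.37 on dim signal, with a mean of 3.02.

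Genes that act on imprints or on DNA methylation, a mixed list with methyltransferase and Tet dioxygenase genes, did not pass either. Of 20 measured, 9 were higher and 11 lower, the median was -0.01, and 0 passed in limma, with 0 at an unadjusted p under 0.05. The maintenance methyltransferase gene Dnmt1 lay at 12.33 and 12.17 in MSI2-inducible arrays, against 12.61, 12.54 and 12.46 in control arrays. The difference was -0.29 (limma adjusted p 0.912), and the 3 Dnmt1 probe sets differed by -0.29 to 0.05, with 1 higher. Mbd3, a subunit of a chromatin remodeller, differed by 0.46, the dioxygenase gene Tet3 by -0.40 and the imprint-binding zinc finger gene Zfp445 by -0.30. The 3 Zfp445 probe sets differed by -0.88 to 0.24.

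Cell cycle partners of Cdkn1c numbered 19, of which 14 were higher and 5 lower with a median of 0.14, and 0 passed in limma (1 higher and 1 lower at an unadjusted p under 0.05). Cdkn1a, the p21 inhibitor related to Cdkn1c, lay at 8.39 and 8.96 in MSI2-inducible arrays, against 8.07, 6.55 and 7.71 in control arrays. Both MSI2-inducible arrays were higher, and the difference was 1.23 (limma adjusted p 0.883). Ccnd1, a cyclin of early cell cycle progression, lay at 8.83 and 8.62, against 9.40, 9.41 and 9.11, a difference of -0.58 (limma adjusted p 0.870). Its kinase partner gene Cdk6 differed by -0.38. Ccne1 differed by 1.20 (limma adjusted p 0.912), with 9.40 in MSI2-inducible replicate 1 and 6.96 in replicate 2, against 6.86, 6.90 and 7.19, so replicate 1 alone set that value.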

How the data were processed

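RNA of 5 samples was measured on Affymetrix mouse whole-genome expression arrays. The authors deposited 1 linear intensity per probe set and array, with array medians of 46.4 to 48.3. The submitters' processing notes name RMA, affy and R 2.11.0; how log values were turned back to linear ones is not stated there. Their log2 was taken without further normalization. The number of arrays limits precision.

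Of 45101 probe sets, 64 were controls, 34945 had 1 gene symbol, 932 several and 9224 none. A GRCm38.p6 gene table, matched on Entrez ID (34741 matched), gave current symbols. The test was limma 3.58.1 (R 4.3.3; lmFit and eBayes with group as the only term, two-sided, Benjamini-Hochberg, threshold 0.05), over 18193 lead probe sets and over all 45037 non-control probe sets. The fit was tested on simulated data. Adjusted p are over the whole fit.

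Named were all members with every probe set, up to 4 genes of each list by smallest p, all measured neighbours, and the 3 nearest profiles of the 3 members with the widest range. Markers are named where the unadjusted p was under 0.05, a rule set after their values were seen, and Gata1 was added because it opposed its list. Members and lists were chosen with earlier results of these data known. Members without a value were not analysed here. Alternatives changed the probe set taken for a gene, the filter on low values, the scale, normalization, threshold and variance model, or used array weights, a replicate block or fewer arrays. Figures were drawn with matplotlib 3.10.9.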

Additional observations from a re-analysis of the deposited data

How the results depend on the processing

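No member, member probe set or other imprinted gene passed limma under any alternative, including an adjusted p of 0.10; at an unadjusted p under 0.05 the counts with all arrays were 0, 1 and 2. The whole table had 4 genes past the test, against 2 with array weights, 1 with 16 added before the log2, 0 with the replicate block, 0 to 0 with 1 array left out, and 7 at an adjusted p of 0.10. With the replicate block (numbers 1 and 2 only; correlations of same-numbered deviations 0.134 and 0.0990, and nothing in the labels pairs the arrays) the differences of Cdkn1c (0.12) and Grb10 (0.0919) turned sign. With the mean of all probe sets, Grb10 (0.0853) and Plagl1 (-0.0656) turned. With an array left out, the sign turned for Cdkn1c (range -0.53 to 0.12, with 0.0082 without MSI2-inducible replicate 1 and 0.0307 without control replicate 2), Dlk1 (-0.12 to 0.0142, positive without MSI2-inducible replicate 2), Grb10 (-0.38 to 0.21), Meg3 (-0.18 to 0.57, negative without MSI2-inducible replicate 1) and Plagl1 (-0.0625 to 0.36, negative without MSI2-inducible replicate 1, and -0.0177 without control replicate 1). None of these was past the test, and the cause was not tested. The gene-level differences of Igf2 (0.0834 to 0.32), Ndn (0.0311 to 1.21) and Peg3 (0.15 to 0.79) stayed positive in every alternative run. Their single probe sets did not all do so. Without MSI2-inducible replicate 1, 3 of the 5 Peg3 probe sets were lower. Without control replicate 2, 4 of the 8 Ndn probe sets were lower, and without control replicate 3, 1 of the 2 Igf2 probe sets. The filter on low values left 3 of the 8 members in the fit. Where 1 MSI2-inducible array was left, its spread was taken from the controls. Dim signal limits Igf2, Peg3, Dlk1, most Meg3 probe sets and the Ndn probe set with the widest difference.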

Other observations

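Some genes from the list of other imprinted genes were bright in these cells. They were picked after their values were seen. The arrays do not separate the copies inherited from each parent, so whether any was imprinted in these cells was not measured. Gnas, which encodes the stimulatory G protein subunit, lay at 12.21 and 12.31 in MSI2-inducible arrays, against 12.31, 12.30 and 12.45 in control arrays. Nap1l4, a histone chaperone gene, lay at 11.41 and 11.35, against 11.34, 11.19 and 11.18, and the tetraspanin gene Cd81 at 11.29 and 11.28, against 11.25, 10.84 and 11.17. Both MSI2-inducible arrays were above every control array for Nap1l4 and Cd81, by differences of 0.14 and 0.20 that did not pass limma (adjusted p 0.952 and 0.944). Of the 48 measured, 22 had means above the median of all probe sets. Below it, Nnat, a neuronal proteolipid gene, lay at 4.73 and 5.93, against 5.16, 4.87 and 6.19, and Peg10, a retrotransposon-derived gene, stayed between 2.79 and 3.07 in every array.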
